A study of Mus musculus with 6 samples.

Results

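The genes described here are 10 markers of dendritic cell lineages, measured in the messenger RNA of mouse splenic monocytes. They were chosen by name, as the rows of the count and FPKM tables with the symbols Clec9a, Xcr1, Cd24a, Itgae, Wdfy4, Cd209a, Siglech, Tcf4, Flt3 and Zbtb46, and each symbol had a single row among the 46072 identifiers of the table. By lineage, 5 are genes of type 1 conventional dendritic cells (cDC1: Clec9a, Xcr1, Cd24a, Itgae, Wdfy4), 1 is a gene of type 2 conventional dendritic cells (cDC2: Cd209a), 2 are genes of plasmacytoid dendritic cells (pDC: Siglech, Tcf4) and 2 are shared by dendritic cells and their precursors (Flt3, Zbtb46). All 10 passed the filter on low counts and were among the 16138 genes tested.

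RNA was compared between the Con group (n = 3 mice), which received water by oral gavage, and the Van group (n = 3 mice), which received 2 mg of the antibiotic vancomycin per mouse and day. Both groups were young adult female mice of the genotype C57BL/6 and had 6 days of gavage. The rest without antibiotic lasted 6 to 8 days by the labels, and 8 days for the mice of the RNA groups by the description of the experiment. The cells were unstimulated and were enriched from the spleen with a magnetic kit that removes other cells, and cells that the kit leaves in contribute RNA. Cells isolated by magnetic negative selection for cultures of the same study were described as CD11b+ and negative for CD3e, CD45R, CD117, Ly-6G, NK1.1 and Siglec F. CD45R is carried by B cells and also by pDC, and CD117 by progenitors, so that the levels of pDC genes are those after any such removal. Each library is taken as 1 mouse, as the RNA groups were described, and p-values measure the spread between these libraries.

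Dendritic cells are the antigen-presenting cells that prime T cells, and they arise in the bone marrow from Flt3-dependent precursors, separately from monocytes. cDC1 take up dying cells and present their antigens to CD8 T cells, cDC2 mainly activate CD4 T cells, and pDC release type I interferon after sensing viral nucleic acids. Some of the genes that mark these cells, such as Cd209a, Tcf4, Cd24a and Flt3, are also transcribed in other leukocytes or precursors, whereas Clec9a, Xcr1 and Siglech are among the more restricted ones in the mouse spleen.

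Promoter sequences are shown for the cDC1 receptors Clec9a and Xcr1 and the pDC receptor Siglech, the members with the largest decreases, and for Flt3, the only member with a higher mean in the Van group in counts scaled to library size. They are taken from RefSeq (GRCm38.p6) and run from 250 bases before to 50 bases after the transcript start, 5′ to 3′ on the strand of the gene. Capitals mark the match to an E-box, CACCTG. The windows lie at chr6:129408612-129408911, plus strand (Clec9a), at chr9:123861980-123862279, minus strand (Xcr1), at chr7:55767934-55768233, plus strand (Siglech) and at chr5:147400440-147400739, minus strand (Flt3).
Clec9a: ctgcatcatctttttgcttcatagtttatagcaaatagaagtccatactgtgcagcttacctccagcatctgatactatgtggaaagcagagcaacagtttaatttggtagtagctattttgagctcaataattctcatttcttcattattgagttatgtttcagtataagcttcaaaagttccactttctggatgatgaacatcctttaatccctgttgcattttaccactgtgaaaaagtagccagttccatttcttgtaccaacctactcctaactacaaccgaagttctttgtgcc
Xcr1: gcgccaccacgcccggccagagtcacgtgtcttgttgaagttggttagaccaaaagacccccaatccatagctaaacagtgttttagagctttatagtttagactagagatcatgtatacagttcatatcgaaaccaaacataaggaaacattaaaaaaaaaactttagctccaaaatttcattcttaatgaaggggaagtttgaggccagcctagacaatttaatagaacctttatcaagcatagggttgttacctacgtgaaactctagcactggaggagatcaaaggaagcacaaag
Siglech: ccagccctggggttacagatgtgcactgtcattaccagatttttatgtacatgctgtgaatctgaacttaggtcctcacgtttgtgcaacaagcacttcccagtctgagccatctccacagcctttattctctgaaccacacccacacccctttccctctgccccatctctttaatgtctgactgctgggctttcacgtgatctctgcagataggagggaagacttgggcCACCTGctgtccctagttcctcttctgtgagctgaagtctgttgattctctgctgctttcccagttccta
Flt3: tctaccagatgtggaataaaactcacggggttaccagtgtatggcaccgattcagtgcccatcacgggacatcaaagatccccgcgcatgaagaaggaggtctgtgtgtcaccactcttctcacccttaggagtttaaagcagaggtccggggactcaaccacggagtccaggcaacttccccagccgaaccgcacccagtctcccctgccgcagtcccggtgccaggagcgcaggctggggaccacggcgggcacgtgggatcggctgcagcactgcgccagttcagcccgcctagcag

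Both strands of the 7 member windows in the RefSeq table (Clec9a, Xcr1, Wdfy4, Cd209a, Siglech, Flt3 and Zbtb46) were searched for an interferon response element (GAAA, any 2 bases, GAAA), an ETS and IRF composite (GGAA, any 2 bases, GAAA), the AP-1 motif TGANTCA and the E-boxes CACCTG and CAGCTG. The promoter of Siglech held CACCTG at position -20 from the start, and 20.2% of all 32851 promoters in the table hold it. Wdfy4 held CAGCTG at 13 (16.3%), and Cd209a held the ETS and IRF composite on the opposite strand at -9 (2.72%). The Wdfy4 window (chr14:33185017-33185316, minus strand) belongs to a start inside the gene and does not reach the outermost start at 33185508. The window for Zbtb46 (chr2:181424339-181424638, minus strand) belongs to a transcript start inside the gene and not to the gene's outermost start at 181459426. Relative to that inner start it held CACCTG at -238 and the AP-1 letters at -61 (7.81% of promoters). The interferon response letters, present in 3.44% of promoters, were in none of the 7 windows. The windows of Clec9a, Xcr1 and Flt3 held none of the 5 motifs, which says only that these letters are not in those windows. The Clec9a promoter had a G+C content of 37.0%, Xcr1 40.0%, Siglech 50.0% and Flt3 61.0%.

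Levels are given per length as FPKM (sequenced fragments scaled to transcript length and library size) where genes are compared with each other. In the Con group, Wdfy4 had the highest level of the 10 genes at 43.6 FPKM, followed by Cd209a at 25.1, Tcf4 at 13.5, Flt3 at 8.14 and Cd24a at 5.45 FPKM. The level of Clec9a was 2.62, of Zbtb46 1.51, of Siglech 1.42, of Xcr1 0.618 and of Itgae 0.514 FPKM. Only the neighbours Zbtb46 and Siglech, and Xcr1 and Itgae, overlapped between mice in that order. In the Van group the order was the same down to Siglech, and Itgae (0.453 FPKM) then stood above Xcr1 (0.346 FPKM) without overlap, while Clec9a (1.39 FPKM) overlapped with Zbtb46 (1.32 FPKM).

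For scale, Csf1r, the receptor for the monocyte growth factor M-CSF, was at 528 to 587 FPKM in the Con mice and 541 to 643 FPKM in the Van mice. As a percentage of mean Csf1r, Clec9a was 0.463% in the Con and 0.229% in the Van group, Xcr1 0.11% and 0.058%, and Siglech 0.253% and 0.129%. Cd209a was 4.45% and 3.69% of Csf1r. Among identifiers above 0 in at least 1 library, 58.1% had a lower mean FPKM than Clec9a, 52.5% lower than Siglech and 45.0% lower than Xcr1, against 93.5% for Wdfy4 and 88.2% for Cd209a.

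**Figure D1:**
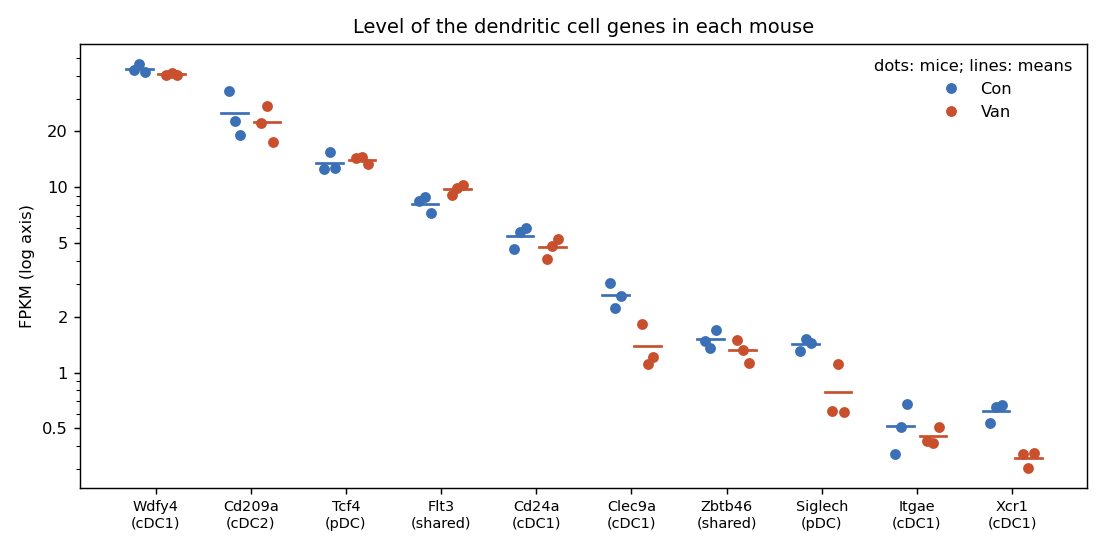
FPKM of the 10 dendritic cell genes (log axis) in each of the 3 Con and 3 Van mice, ordered by the mean over all mice; dots are mice and lines are group means. Wdfy4 was highest at 43.6 FPKM in the Con group, and the Van mice lie below all Con mice for Clec9a, Siglech, Xcr1 and, by a narrow margin, Wdfy4.

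Between the groups, the cDC1 receptor gene Clec9a fell in the Van group and was the only one of the 10 genes called by edgeR's quasi-likelihood test at an adjusted p of at most 0.05. Xcr1 and Siglech had fold changes of similar size but adjusted p above the threshold in edgeR, whereas Cd209a, Cd24a, Itgae and Zbtb46 overlapped between the groups. In all, 9 of the 10 members had a negative log2 fold change and 1 (Flt3) a positive one, with a median of -0.19, beside a median of -0.0014 over all 16138 genes tested. The call of 1 in 10 members stands beside 322 of 16138 genes called (2.00%), of which 148 were lower in the Van group (0.917%). At an unadjusted p under 0.05, 4 of the 10 members passed, beside 16.5% of all genes, and the values per mouse did not overlap between the groups for 6 of the 10, beside 22.5% of all genes. As the 10 genes were chosen with earlier results of these data known, these shares are a description only. In a bulk sample, fewer cells of a type and less RNA per cell cannot be told apart.

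Among the cDC1 genes, Clec9a (ENSMUSG00000046080, chr6:129408862-129424763, plus strand, GRCm38) encodes DNGR-1, a C-type lectin that recognises actin filaments exposed by dying cells. Its level was 11.5, 8.79 and 10.1 CPM (counts scaled to library size with TMM factors) in Con mice 1 to 3 and 4.98, 4.18 and 4.81 CPM in Van mice 1 to 3. Every Van mouse was below every Con mouse, and the highest Van value was well under the lowest Con value. The mean was 10.1 ± 1.37 CPM in the Con and 4.66 ± 0.424 CPM in the Van group (SD, n = 3 each), a log2 fold change of -1.12 (SE 0.141) with an adjusted p of 0.0132 in edgeR, so that the Van level was 46.0% of the Con level. In FPKM it was 53.0% of the Con level, from 2.62 ± 0.401 to 1.39 ± 0.384 FPKM. These values rest on 213 to 598 counts per library. When each mouse was left out in turn the log2 fold change stayed between -1.21 and -1.02, and the call was kept in 4 of the 6 fits, being lost without Con mouse 3 (adjusted p = 0.0721) and without Van mouse 2 (adjusted p = 0.0758) in edgeR. DESeq2 gave an adjusted p of 2.33e-08. In limma on quantile-normalised FPKM the call was lost, with a log2 fold change of -0.59 and an adjusted p of 0.199 on the log2(FPKM + 1) scale (0.111 when genes of a mean of at least 1 FPKM were tested), and of -0.87 and 0.318 on the log2(FPKM + 0.1) scale. A pseudocount of 1 lowers the fold change of genes with low FPKM. With 0.1 the fold change was near the log2 ratio of the mean FPKM (-0.92), and the call was lost there too. The first 184 bases of Clec9a, 5.59% of its 3293 exon bases, lie in an exon of the neighbouring platelet and myeloid lectin gene Clec1b on the same strand. Clec1b was at 15.0, 12.9 and 18.3 CPM in the Con mice and 13.1, 16.0 and 12.2 CPM in the Van mice, with a log2 fold change of -0.16 (SE 0.15) and an adjusted p of 0.663 in edgeR.

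Xcr1 (chr9:123852315-123862029, minus strand) encodes the receptor for the chemokine XCL1, through which cDC1 are drawn to activated CD8 T and NK cells. It was measured at 2.85, 3.5 and 3.51 CPM in the Con mice and 1.93, 1.59 and 1.97 CPM in the Van mice. As for Clec9a, the 3 Van mice lay below the 3 Con mice, here on only 81 to 210 counts per library. The log2 fold change was -0.85 (SE 0.193), to 55.7% of the Con level, with an adjusted p of 0.0667 in edgeR and 0.0129 in DESeq2. With each mouse left out it was between -0.94 and -0.75, with an adjusted p of 0.091 to 0.205 in edgeR. In limma it was -0.25 on the log2(FPKM + 1) and -0.65 on the log2(FPKM + 0.1) scale, with adjusted p of 0.14 and 0.248.

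The other cDC1 genes differed less. Wdfy4 (chr14:32959547-33185508, minus strand), required in cDC1 for cross-presentation of cell-associated antigen, was at 408, 401 and 378 CPM in the Con mice and 368, 368 and 365 CPM in the Van mice. The Van values were nearly identical and lay just under the lowest Con value, and the difference was small, with a log2 fold change of -0.11 (SE 0.052) and an adjusted p of 0.339 in edgeR. In the Con group Wdfy4 was at 43.6 FPKM, beside 2.62 FPKM for Clec9a and 0.618 FPKM for Xcr1. Which cells carry this RNA cannot be told in a bulk sample, so its change cannot be assigned to cDC1. Cd24a (chr10:43578284-43584265, plus strand), a glycoprotein on the cDC1 surface that is also present on B cells, neutrophils and erythroid cells, was at 10.2, 12.5 and 12.8 CPM in the Con and 8.87, 10.2 and 11.5 CPM in the Van mice. The groups overlapped, with a log2 fold change of -0.22 (SE 0.132) and an adjusted p of 0.473 in edgeR, and reads may be shared with the pseudogene Gm6212, which matches 218 bases of Cd24a at 96.789% identity. Itgae (chr11:73090583-73147446, plus strand), the CD103 integrin chain that is also found on T cells, was at 1.7, 2.35 and 3.05 CPM in the Con and 1.98, 1.88 and 2.34 CPM in the Van mice. All Van values lay within the Con range, and the log2 fold change of -0.19 (SE 0.251, adjusted p = 0.781 in edgeR) became 0.031 without Con mouse 3.

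**Figure D2:**
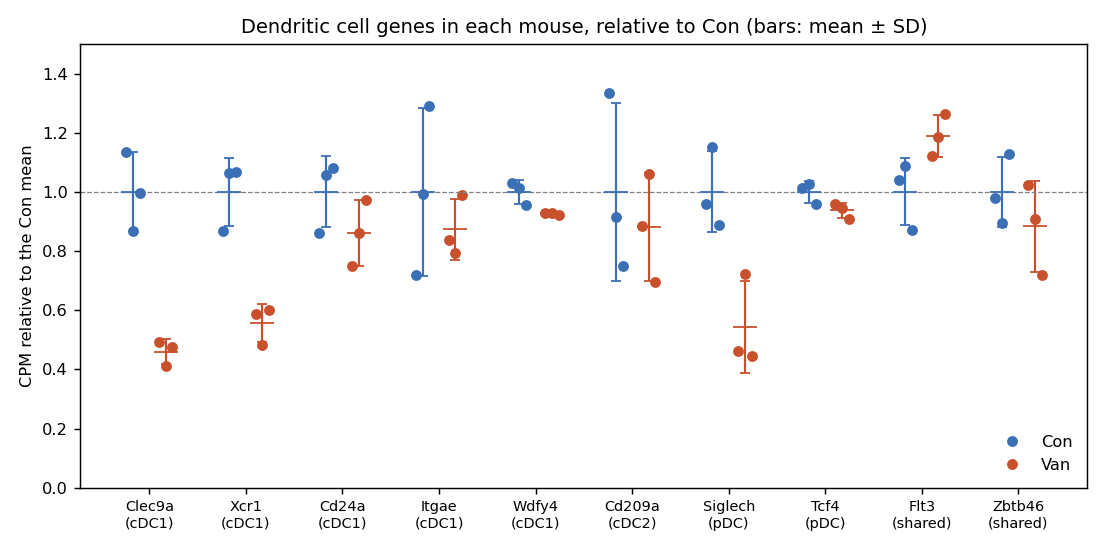
CPM of each gene in each mouse divided by the mean of the Con group (dashed line at 1), with bars for the mean ± SD of 3 mice per group. The Van mice sit farthest below the Con mice for Clec9a, Xcr1 and Siglech, and the groups overlap for Cd24a, Itgae, Cd209a and Zbtb46.

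Cd209a (chr8:3743397-3748984, minus strand), a mouse relative of DC-SIGN that is found on cDC2 and on a part of monocytes, had the largest coefficient of variation of the 10 genes in the Con group (30.0% of CPM). Its level was 59.5, 40.8 and 33.5 CPM in the Con mice and 39.5, 47.3 and 31.0 CPM in the Van mice. Con mouse 1 was the highest of the 6, and the other values of both groups were intermixed. The means were 44.6 ± 13.4 and 39.3 ± 8.17 CPM (SD, n = 3 each), a log2 fold change of -0.19 (SE 0.213) with an adjusted p of 0.741 in edgeR, and without Con mouse 1 it was 0.074.

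Of the pDC genes, Siglech (chr7:55768178-55778925, plus strand), a sialic acid-binding lectin of mouse pDC that signals through DAP12, was at 3.12, 3.75 and 2.89 CPM in the Con mice and 1.5, 2.35 and 1.45 CPM in the Van mice. Again no Van mouse reached the lowest Con value, with Van mouse 2 nearest to it. The log2 fold change was -0.88 (SE 0.242), to 54.2% of the Con level, with an adjusted p of 0.113 in edgeR and 0.0324 in DESeq2, on 82 to 225 counts per library. With each mouse left out it was between -1.14 and -0.76, with an adjusted p of 0.122 to 0.274 in edgeR. In limma it was -0.44 on the log2(FPKM + 1) and -0.81 on the log2(FPKM + 0.1) scale, with adjusted p of 0.201 and 0.33. Tcf4, the E protein E2-2 that maintains pDC identity and is also used in B cells and other tissues, was at 85.6, 86.6 and 80.9 CPM in the Con mice and 80.8, 79.8 and 76.7 CPM in the Van mice. The groups barely separated, Con mouse 3 being next to Van mouse 1, and the log2 fold change was -0.09 (SE 0.0575, adjusted p = 0.482 in edgeR). In FPKM the Tcf4 groups overlapped, with a mean of 13.5 ± 1.65 in the Con and 14.0 ± 0.659 FPKM in the Van group. By DESeq2, then, 3 of the 10 members (Clec9a, Xcr1 and Siglech) were called, beside 8.41% of the genes to which DESeq2 gave an adjusted p.

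Flt3 (chr5:147330741-147400489, minus strand), the receptor whose ligand drives dendritic cell development and which is also present on early progenitors, was the only member with a higher mean CPM in the Van group. It was at 37.1, 38.8 and 31.1 CPM in the Con mice and 40.0, 42.3 and 45.0 CPM in the Van mice. The groups did not overlap, the Con mice being more spread than the Van mice. The log2 fold change was 0.25 (SE 0.0927) with an adjusted p of 0.23 in edgeR and 0.137 in DESeq2. Zbtb46 (chr2:181387762-181459426, minus strand), a transcription factor of conventional dendritic cells and their committed precursors that is also present in endothelium, was at 6.81, 6.22 and 7.84 CPM in the Con and 7.11, 6.33 and 5.0 CPM in the Van mice. These overlapped, with a log2 fold change of -0.18 (SE 0.162) and an adjusted p of 0.664 in edgeR.

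**Figure D3:**
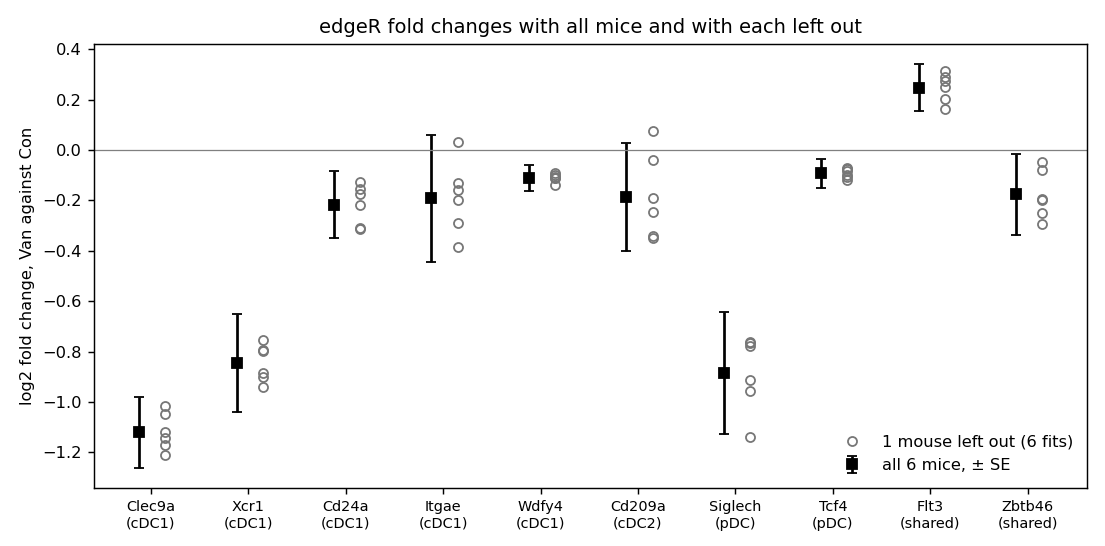
Log2 fold change of Van against Con for each gene from edgeR with all 6 mice (squares, ± SE) and with each mouse left out in turn (open circles, 6 fits). The values for Clec9a stay between -1.21 and -1.02, while those of Itgae and Cd209a reach both sides of 0.

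To compare the lineages within a library, where the scaling between libraries cancels, the ratios of Clec9a (cDC1), Cd209a (cDC2) and Siglech (pDC) were taken per mouse from the FPKM values. The ratio of Clec9a to Cd209a was 0.0913, 0.0975 and 0.135 in the Con mice and 0.0822, 0.0408 and 0.0698 in the Van mice. Every Van ratio was lower, by 0.79 on average on the log2 scale, and the exact two-sided permutation test gave p = 0.1, the smallest that 3 against 3 mice allow (0.3 after Benjamini-Hochberg adjustment over the 3 ratios). With a mouse left out the difference was between -0.99 and -0.49, the smallest without Van mouse 2. The ratio of Cd209a to Siglech was 25.6, 15.0 and 13.3 in the Con mice and 35.7, 24.7 and 28.6 in the Van mice. It was higher by 0.77 on the log2 scale in the Van group, with Con mouse 1 above Van mouse 2 (exact permutation p = 0.2, adjusted 0.3), and by 0.58 to 1.05 with a mouse left out. The ratio of Clec9a to Siglech was 2.33, 1.46 and 1.8 in the Con mice and 2.94, 1.01 and 2.0 in the Van mice. In FPKM the Van mice enclosed the Con mice, and the difference was -0.02 on the log2 scale (exact permutation p = 1, adjusted 1), with a spread between mice of 0.339 (Con) and 0.783 (Van, SD), and it was between -0.37 and 0.41 with a mouse left out, positive without Con mouse 1 and without Van mouse 2. The unit mattered here: Clec9a was at 1.83 FPKM and 4.98 CPM in Van mouse 1, and at 1.22 FPKM and 4.81 CPM in Van mouse 3. In CPM the ratio was highest in Con mouse 1, so that the Van mice did not enclose the Con mice. No ratio could have passed a threshold of 0.05 in this design, and these p-values do not show that the lineages changed alike or unlike.

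The lineages were described further with lists of 82 other dendritic cell genes, 81 of which were tested. These lists were written with earlier results of these data known, so that their shares are a description and cannot be read as an enrichment. Of these, 6 were called by edgeR, all of them lower in the Van group (7.41%, beside the 2.00% of all genes), 55 had a negative and 26 a positive fold change, and 24 did not overlap between the groups (29.6%, beside 22.5%). At an unadjusted p under 0.05, 26 were lower and 6 higher, beside the 16.5% of all genes that passed it. The calls depended on single mice: without Van mouse 1 there was 1 call (Ifi205), and with any of the other mice left out there was none, while 20 to 33 of the genes had an unadjusted p under 0.05 in edgeR. DESeq2 called 15 of 82, of which 14 were lower, beside the 8.41% of all genes with an adjusted p in DESeq2. In the 3 limma fits on log2 FPKM 0 were called, with 20 to 25 at an unadjusted p under 0.05, and with a block for the replicate number edgeR called 2.

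Among 17 further cDC1 genes the median log2 fold change was -0.14, with 11 lower and 6 higher. The only one called was Ifi205, an interferon-inducible DNA sensor-like gene, from 83.5 ± 2.42 to 61.9 ± 6.75 CPM (log2 fold change -0.43, edgeR adjusted p = 0.0403; 0.0251 to 0.164 with a mouse left out). The most abundant by FPKM, which monocytes share, were Id2, Irf8 and Naaa. Id2, an inhibitor of E proteins needed for cDC1, had 168 ± 7.03 CPM in the Con and 214 ± 29.4 CPM in the Van group (log2 fold change 0.35, edgeR adjusted p = 0.105). Irf8, the transcription factor that specifies cDC1, had 302 ± 23.5 and 269 ± 9.88 CPM (log2 fold change -0.17, edgeR adjusted p = 0.265). Naaa, a lysosomal amidase, had 187 ± 4.58 and 198 ± 14.2 CPM (log2 fold change 0.08, edgeR adjusted p = 0.622).

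Of 16 further cDC2 genes tested, 11 were lower and 5 higher, the median log2 fold change was -0.20, and 2 were called. Irf4, a transcription factor of cDC2 and of alternatively activated macrophages, fell from 39.0 ± 3.62 to 26.4 ± 2.45 CPM (log2 fold change -0.57, edgeR adjusted p = 0.0304; 0.0686 to 0.0967 with a mouse left out). Clec12a, an inhibitory lectin of myeloid cells, fell from 225 ± 3.58 to 184 ± 9.0 CPM (log2 fold change -0.29, edgeR adjusted p = 0.0411; 0.0716 to 0.165 with a mouse left out). The most abundant members of this list were myeloid genes shared with monocytes. Sirpa, the inhibitory receptor for CD47, was at 1235 ± 93.6 and 1251 ± 52.8 CPM, Itgam, the CD11b integrin chain, at 1125 ± 16.5 and 972 ± 31.2 CPM, and the transcription factor gene Klf4 at 592 ± 66.3 and 727 ± 77.1 CPM. Their adjusted p in edgeR were 0.928, 0.0741 and 0.192.

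Of 22 further pDC genes, 15 were lower and 7 higher, with a median log2 fold change of -0.13. The one called, Upb1, an enzyme of pyrimidine breakdown, fell from 4.94 ± 0.761 to 2.2 ± 0.221 CPM (log2 fold change -1.17, edgeR adjusted p = 0.0227; 0.0554 to 0.0867 with a mouse left out), and its log2 fold change was -0.50 in limma on log2(FPKM + 1). Irf7, the interferon regulatory factor behind the type I interferon of pDC, had 249 ± 9.68 CPM in the Con and 218 ± 7.17 CPM in the Van group (log2 fold change -0.19, edgeR adjusted p = 0.136). The RNA sensor Tlr7 had 386 ± 8.25 and 415 ± 9.1 CPM and the inhibitory collagen receptor Lair1 220 ± 16.1 and 214 ± 30.7 CPM, with adjusted p of 0.336 and 0.894 in edgeR.

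Of 26 further genes shared between dendritic cells, 18 were lower and 8 higher, with a median log2 fold change of -0.17. Both called genes, Kmo and Haao, encode enzymes of the kynurenine branch of tryptophan breakdown. Kmo fell from 20.2 ± 3.08 to 12.8 ± 1.35 CPM (log2 fold change -0.66, edgeR adjusted p = 0.0431; 0.0755 to 0.124 with a mouse left out), and Haao from 32.5 ± 0.758 to 24.8 ± 1.61 CPM (log2 fold change -0.39, edgeR adjusted p = 0.0373; 0.0623 to 0.148). The most abundant were antigen presentation genes. The MHC class II invariant chain gene Cd74 was at 3494 ± 558 CPM in the Con and 2786 ± 459 CPM in the Van group, the class II chain gene H2-Aa at 1067 ± 170 and 796 ± 131 CPM, and the protease inhibitor gene Cst3 at 1148 ± 73.6 and 1101 ± 46.8 CPM. None of these passed in edgeR, with adjusted p of 0.282, 0.169 and 0.714. H2-Aa passed in DESeq2 (adjusted p = 0.0168) and in edgeR with a block for the replicate number (0.0383), the log2 fold change of Cd74 went from -0.33 to -0.088 in limma, and that of Cst3 from -0.06 to 0.065. Of the other genes named from these lists for their level, Id2, Itgam and Irf7 also passed in DESeq2, with adjusted p of 0.00885, 0.00212 and 0.0375.

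**Figure D4:**
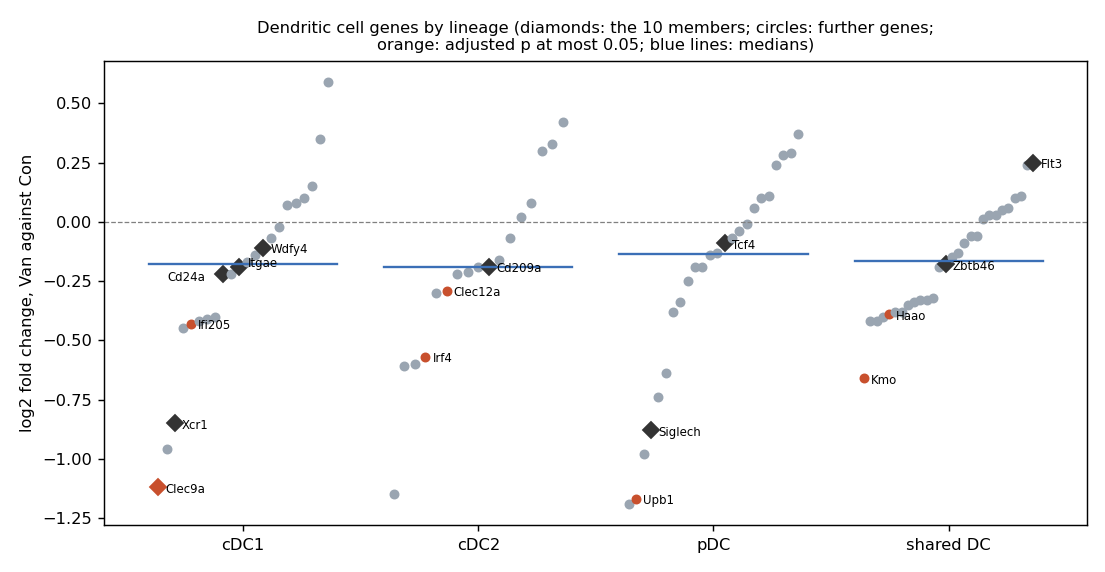
Log2 fold change of Van against Con for the 10 members (diamonds) and 81 further dendritic cell genes (circles), sorted within each lineage along the horizontal axis; orange marks an adjusted p of at most 0.05 in edgeR and blue lines are medians of the genes shown. Clec9a (-1.12) and Upb1 (-1.17) are the lowest of the called genes, and Flt3 (0.25) is the only member above 0.

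The labelled cell type was checked on its markers, and the means of the monocyte genes Lyz2, Nr4a1 and Csf1r were 12140, 3371 and 3168 CPM in the Con group. Markers of other spleen cells were counted in the same comparison. Summed B cell markers were at 625 to 718 CPM in the Con and 460 to 506 CPM in the Van mice, with 9 of 9 tested lower and 1 called (Ighm, log2 fold change -0.52, adjusted p = 0.0162 in edgeR). Ighm alone made up most of that sum, with means of 661 CPM in the Con and 462 CPM in the Van group. T cell markers were at 49.0 to 66.7 and 37.1 to 50.7 CPM (8 of 9 lower, 0 called and 3 at an unadjusted p under 0.05 in edgeR). Cd4 made up most of that sum, with means of 36.3 CPM in the Con and 29.5 CPM in the Van group. Cd4 and Cd8a also stand on the further cDC2 and cDC1 lists. Cd3e, with means of 0.802 and 0.869 CPM, was the T cell marker that was not lower. NK cell markers were at 25.7 to 39.4 and 14.7 to 21.9 CPM (3 of 4 tested lower, 1 called, Klrk1 at -0.90 with an adjusted p of 0.0495 in edgeR). Klrk1 carried nearly all of the NK sum (means of 31.4 and 16.8 CPM), the other tested genes had means under 1 CPM, Klrb1c being the higher one in the Van group, and Ncr1, Nkg7, Prf1 and Klre1 were too low to be tested. Platelet markers were at 76.2 to 96.8 and 65.3 to 82.4 CPM, with 8 of 8 lower, 0 called and 2 at an unadjusted p under 0.05 in edgeR. Erythroid markers went from 86.1 to 174 CPM in the Con to 286 to 628 CPM in the Van mice, with 10 of 10 higher and 5 called (Hba-a1, Hba-a2, Hbb-bs, Hbb-bt and Alas2). With each mouse left out, Alas2 was called in 2 of 6 fits (without Van mouse 1 and without Van mouse 3), Hba-a2, Hbb-bs and Hbb-bt in 1 (without Van mouse 3) and Hba-a1 in 0, with adjusted p of up to 0.147 in edgeR. Red pulp macrophage markers were at 3589 to 4224 CPM in the Con and 4228 to 5385 CPM in the Van mice, with 10 of 10 fold changes positive, 0 called and 6 at an unadjusted p under 0.05 in edgeR. Of the monocyte genes, Ccr2, the receptor for exit from the bone marrow, fell (log2 fold change -0.83, edgeR adjusted p = 0.0283) and Vcan, a proteoglycan gene of classical monocytes, rose (1.54, adjusted p = 0.0309), as given by edgeR. Fcgr1, the high-affinity IgG receptor gene of monocytes and macrophages, fell from 75.6 ± 2.2 to 60.4 ± 1.57 CPM (log2 fold change -0.32, edgeR adjusted p = 0.0328), and was called in 0 of the 6 fits with a mouse left out (adjusted p of 0.0679 to 0.127). By direction, 4 of the 10 classical monocyte markers were higher and 6 lower in the Van group, with 1 called each way. For the 9 monocyte lineage markers, 5 were higher and 4 lower, with 2 each way at an unadjusted p under 0.05 in edgeR. When each mouse was left out in turn, Ighm and Ccr2 kept their call in 2 of 6 fits and Klrk1 and Vcan in 1 of 6, with adjusted p of up to 0.089, 0.0991, 0.179 and 0.123 in edgeR, and the highest came without Van mouse 2 for Ighm, Klrk1 and Vcan and without Con mouse 3 for Ccr2. In the 11 other alternatives, Ighm, Ccr2, Klrk1, Vcan and Fcgr1 were called in 7 and the 5 erythroid genes in 8. Adjusted p reached 0.325 (Vcan) in limma on log2(FPKM + 0.1). Summed neutrophil markers were at 354 to 402 CPM in the Con and 410 to 473 CPM in the Van mice, with 6 of 8 tested lower, 2 higher, 0 called and 2 at an unadjusted p under 0.05 in edgeR. Csf3r, which monocytes also transcribe, made up most of that sum (327 ± 12.9 and 380 ± 6.72 CPM), S100a8 had means of 1.55 and 1.47 CPM, and Ly6g was at 0 in all libraries. The part of these differences in the lower Clec9a, Xcr1 and Siglech was not tested.

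Genes with profiles most like those of a member were taken by the root-mean-square difference of centred log2 CPM over the 6 libraries, among 12588 genes. Nearest to Clec9a were Slc14a1 (0.125), Fam65b (0.127), Gbp2b (0.142), Upb1 (0.164) and Gm28417 (0.168), beside a median of 0.589 over all genes. Xcr1 was the 27th nearest at 0.248 and Siglech the 287th at 0.375. Nearest to Siglech were Cysltr1 (0.113), Kank2 (0.168), Zfp831 (0.171), Chst1 (0.175) and Rab11fip4 (0.181), beside a median of 0.529, with Xcr1 268th and Clec9a 489th. Nearest to Cd209a were 1500002C15Rik (0.0837), Gm8250 (0.115), Spata1 (0.123), Gm10241 (0.127) and M6pr-ps (0.127), beside a median of 0.341, and the nearest other member was Wdfy4, the 1295th (0.276). With 6 libraries in 2 groups, a gene that differs between the groups by a like amount is near by construction.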

How the data were processed

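Poly(A) RNA sequencing of splenic monocytes was analysed for the Con group (n = 3) and the Van group (n = 3), grouped by the labels. The study's data statement names another deposit, so that its methods were tied to these libraries by group, cell type and treatment. Libraries were made by the authors with a stranded mRNA kit, and reads were aligned with HISAT2 2.2.1 to GRCm38. The deposited FPKM values were made by the authors with StringTie 2.1.3 and Ballgown and are relative to length and depth. The deposited expected counts (estimated counts) were made by the authors from these through tximport 1.26.1, without scaling to library size. Which annotation was used, how multiply aligned reads were treated and whether strand was used in counting are not given in the sources used here. VanLip libraries were not analysed here.

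The total count was between 43.4M and 61.8M per library. Because counts times 75 were whole (tolerance 0.05) for 52.3% to 55% of values, against 9.56% to 9.98% times 74, they appear to be coverage divided by a read length of 75. This is the default setting of the StringTie and tximport route and not the longer paired reads that the study's methods state, so that a count is not a number of reads. With 200 sequenced bases per fragment, as the stated paired reads give, the libraries hold an estimated 16.3M to 23.2M fragments. Counting precision is that of the fragments, so that the p-values of low genes rest on fewer molecules than the counts show. An alternative on the fragment scale was run. No pair of libraries within a group agreed within sampling noise (chi-square per gene 20.8 to 42.9).

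After rounding to whole numbers, expected counts were tested in R 4.3.3 with the quasi-likelihood test of edgeR 4.0.16 (TMM scaling, expression filter at a minimum count of 10, group as the only term, Benjamini-Hochberg adjustment over all 16138 genes, threshold 0.05). The SE of a fold change was taken from its F statistic. Exact two-sided permutation tests over mice were used for ratios. DESeq2 1.42.0 and limma 3.58.1, on quantile-normalised log2(FPKM + 1) values, were alternatives. The edgeR script was tested on simulated data. Over all genes, same-numbered libraries did not deviate alike, and the replicate numbers were not used in the main test. Positions are from GENCODE M21 (GRCm38), promoters from RefSeq, and near copies were searched with BLAST 2.17.0 (at least 200 bases at 95% identity).

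The 10 genes, the further lists and the marker lists were chosen with earlier results of these data known. From the further lists, genes called by edgeR and the 3 with the highest mean FPKM per list were named. For marker lists, the called genes and the most abundant marker could be named, and lists of plasma cell, basophil, progenitor and nonclassical monocyte markers held no called gene.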

Additional observations from a re-analysis of the deposited data

How the results depend on the processing

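Over the 10 members and the alternatives, 156 fold changes kept their direction and side of the threshold, 5 reversed, 5 lost the call and 2 gained it. The number of genes called was 322; it was 983 with DESeq2, 110 with the replicate block, 24 with limma on log2(FPKM + 1), 46 when genes of a mean of at least 1 FPKM were tested, 0 with log2(FPKM + 0.1) and 21 to 136 when each mouse was left out. The number of members called, 1, became 3 with DESeq2 and 0 in each of the 3 limma fits, in which 4, 3 and 3 members had an unadjusted p under 0.05, and was 0 to 1 with a mouse left out (0 without Con mouse 3 and without Van mouse 2). Xcr1 and Itgae did not reach the mean of 1 FPKM. The smaller fold changes of Clec9a, Xcr1 and Siglech in limma are given with these genes. Other scalings and count filters left the number of members called at 1. Of the further dendritic cell genes, 6 were called; 15 were with DESeq2, 2 with the block, 0 in the 3 limma fits (20, 22 and 25 at an unadjusted p under 0.05) and 0 to 1 with a mouse left out. These last alternatives were chosen after seeing the data.

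The log2 fold change reversed for Tcf4 under limma (0.038 with a pseudocount of 1, with or without the mean of 1 FPKM, and 0.040 with 0.1), for Cst3 under limma (0.065 in the 3 fits), and, over the fits with a mouse left out, for Cd209a (-0.35 to 0.074), Itgae (-0.39 to 0.031), Lair1 (-0.17 to 0.022) and Sirpa (-0.031 to 0.076). In FPKM, the difference in the ratio of Clec9a to Siglech ranged from -0.37 to 0.41 on the log2 scale with a mouse left out, and was 0.16 without Con mouse 1. Over all genes, same-numbered libraries did not deviate alike: the correlations of same-numbered deviations were 0.0772, -0.0236 and -0.141 over 12684 genes. A correlation over all genes cannot decide whether single genes follow the replicate number. With the block, Clec9a kept its call, and the number of members called was 1. Depth limits Xcr1, Siglech and Itgae most.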
